A study of Mus musculus with 6 samples.

Results

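The expression state of the wild-type mouse embryo below the forelimb was described from 3 of the 6 arrays of a study on closure of the posterior neural tube. The 3 arrays were those whose titles name a wild-type sample, which are samples 7, 10 and 12. The remaining 3 arrays came from embryos null for Fkbp8, a membrane-anchored immunophilin gene, and they enter here only in the normalization of differences between arrays. Each sample was embryonic tissue at embryonic day 9.5, cut off just below the forelimb pit, from a stock mixed of the strains C57BL/6 and 129S5/SvEvBrd. The labels give an average of 21.6 somite pairs, a neural tube open only at the posterior neuropore, and no sex, litter or statement that each sample is a single embryo. The labels disagree on the tissue, since the source field says anterior neural tube while the tissue field, the dissection and the series title say posterior. Amplified RNA of each sample, labelled with biotin, was read on a 1-colour CodeLink array of oligonucleotide probes for the mouse genome.

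At this stage the posterior embryo still grows at its tail end. The tail bud and caudal epiblast, kept by T, Cdx, Wnt and Fgf genes, feed neural tube and paraxial mesoderm, and the mesoderm segments into somites. Hox genes, which lie in 4 clusters and are switched on in the order of their position, give each level of the trunk its identity. The tissue also holds surface ectoderm, hindgut, lateral plate with the early hindlimb field, vessels and circulating primitive red cells. In such a mixed sample, fewer cells of a type and less RNA per cell cannot be told apart.

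Each array held 34967 spots for mouse transcripts and 320 negative control spots. A signal is given as a spot's background-subtracted raw intensity divided by the median negative spot of the same array, so that a value of 1 is the level of a spot with no target. The median transcript spot read 2.33, 2.58 and 3.80 in samples 7, 10 and 12. The brightest read 1400, 1487 and 1789. A spot was called above background where the scanner software flagged it neither near background nor missing on all 3 arrays. This held for 57.0% of transcript spots, or 19914, and for 0 of the 320 negative spots, although 17 to 38 negative spots passed on any single array. The flag is permissive, and a second, stricter call of at least 10 times the negative median on every array was therefore added after the data were seen. It was met by 6214 transcript spots. Of the 18507 genes that could be named, 12240 (66.1%) had a spot above background, 3220 passed on 1 or 2 arrays, and 3047 (16.5%) passed on none, of which 2974 were measured near background and 73 had no reading. The stricter call was met by 4899 genes (26.5%). These shares of all named genes, 66.1% and 26.5%, are the ones to set beside the counts of every list below. Sample 12 had the brightest scale, and its ratios are mostly the highest of the 3 for that reason, so differences between arrays are given on normalized log2 signals. An SD printed beside a mean ratio includes this difference in scale and does not measure the spread between samples alone. Every brightness also depends on how well a probe binds its target. The order of genes below is an order of signal and not of molecules.

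Sample 10 stood apart in genes of the tail end and is named here before the results that rest on it. T, the Brachyury factor of the tail bud and notochord, read 75.5 in sample 7, 8.69 in sample 10 and 89.2 in sample 12. Cdx2, a caudal homeobox factor, read 49.5, 7.41 and 62.0 in the same order. Both genes were above background in all 3 samples, and in both sample 10 was the low one. Where 3 values follow a gene below, they are those of samples 7, 10 and 12.

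The brightest transcripts were those of protein synthesis. Of the 30 brightest named genes, 21 encoded cytosolic ribosomal proteins, and of the 100 brightest 34 did. Rpl35, a protein of the large ribosomal subunit, was the brightest, at 1360, 1487 and 1649 times the negative median. Rpl41 read 1290, 1402 and 1773. Next came Rpl27a, with 1342, 1387 and 1563. Ppia, the cyclophilin A prolyl isomerase, followed at 1260, 1356 and 1659. These genes and Rpl37a and Rpl32 were flagged saturated on every array, so their values are lower bounds and their order among themselves carries no information. The rest of the 21 ribosomal genes, from Rps14 down to Rpl13, had mean signals of 874 to 1319. Rps14 and Rpl6 of these were flagged saturated on 2 arrays, and Rps16, Rpl19, Rpl36a, Rplp2, Rpl11 and Rplp0 on 1, so the upper end of this range is a lower bound too. The 100 brightest spots held 13.4% to 15.8% of the summed signal of an array, and the 1000 brightest held 45.5% to 49.0%.

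The start regions of the leading ribosomal genes are shown because such genes are known for a run of pyrimidines at the transcription start, through which growth signals control their translation. The sequences are from the RefSeq promoter table for GRCm38.p6, 15 bases to each side of the annotated start. Capitals mark the longest run of C and T that begins with C and has at least 6 bases.
Rpl35: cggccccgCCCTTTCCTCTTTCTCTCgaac
Rpl27a: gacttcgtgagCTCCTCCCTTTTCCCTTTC
Rpl41: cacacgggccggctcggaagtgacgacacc
Rpl37a: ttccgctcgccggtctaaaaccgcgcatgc
The window of Rpl35 lies at chr2:39005117-39005146 on the minus strand and holds a run of 18 bases, and that of Rpl27a lies at chr7:109519180-109519209 on the plus strand with a run of 19. The windows of Rpl41 (chr10:128549154-128549183, minus) and Rpl37a (chr1:72711245-72711274, plus) hold none, which says only that these letters are not in these windows. Across the table's first promoter of each gene, 25 of 49 ribosomal genes (51.0%) held such a run, and 7 of the 18 with an entry that were among the 30 brightest (38.9%), beside 22.9% of the named genes on the array. The run was searched on the strand of the gene only.

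Ribosomal genes as a list had 59 of 63 members above background (93.7%) and 54 at least 10 times the negative median. Their median signal was 495, beside 4.51 for all named genes. Rps2 and Rps27a, which encode small-subunit proteins, and the muscle paralogue Rpl3l were near background, at means of 1.10, 0.855 and 0.984. Rpl34 passed on some arrays only, with a mean of 1.58. Translation factors followed the ribosome, with 20 of 21 above background, a median of 172, and no reading for Eif5a. Eef1d, a subunit of the elongation factor complex, was the brightest of them at 487, 654 and 944.

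**Figure D1:**
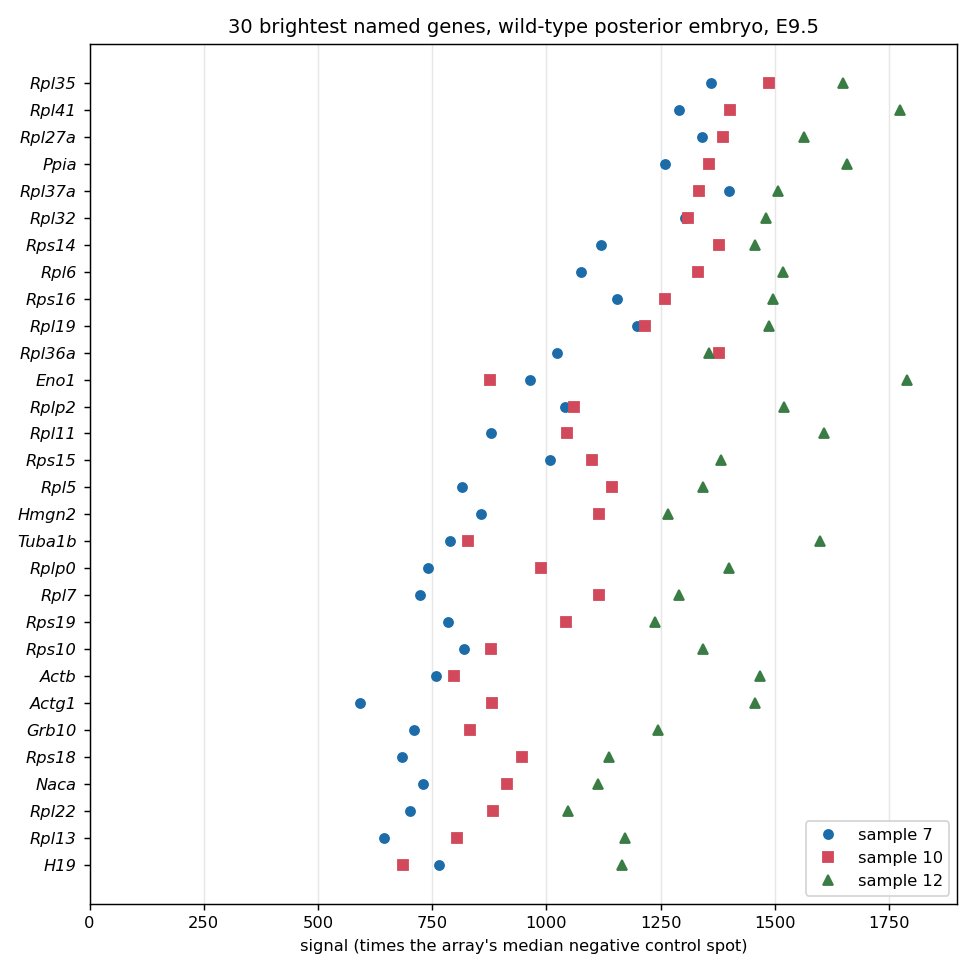
Signal of the 30 brightest named genes, as multiples of the array's median negative control spot on a linear axis. Each point is a wild-type sample (circle 7, square 10, triangle 12); ribosomal protein genes fill 21 of the 30 places, and sample 12 mostly lies to the right.

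Outside the ribosome, the 30 brightest genes held Ppia and genes of the cytoskeleton, glycolysis, chromatin, protein synthesis and imprinted loci. Eno1, a glycolytic enolase, read 964, 877 and 1789. Tuba1b, an alpha-tubulin, read 789, 829 and 1599. Actb and Actg1, the cytoplasmic actins, had means of 1009 ± 398 and 976 ± 440 (SD, n = 3). Each of these 4 genes was flagged saturated on 1 array, so their means are lower bounds. Sample 12 was the highest for all 4 genes. Hmgn2, a nucleosome-binding protein, averaged 1080 ± 207, and Naca, of the nascent polypeptide-associated complex, 920 ± 192 (SD, n = 3). Grb10, an imprinted adaptor that restrains growth, read 711, 833 and 1244. The imprinted non-coding RNA H19 read 765, 687 and 1166, and its neighbour Igf2, a fetal growth factor, 375, 415 and 790. All imprinted growth genes together had 20 of 23 members above background, with 15 at least 10 times the negative median and a median of 46.0. Peg3, Sgce and Dio3 passed on some arrays only, at means of 2.80, 1.81 and 2.52.

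Genes of energy and division were detected nearly throughout. The mitochondrial respiratory chain had 34 of 34 members above background and a median of 157. The brightest member listed was Atp5g3, a subunit of ATP synthase, at 413, 559 and 828. Uqcrh, a subunit of respiratory complex III that the list leaves out, read 529, 706 and 827. DNA replication and mitosis genes numbered 34 of 37 above background with a median of 56.4, led by Birc5, the mitotic survivin, at 240, 336 and 462 and by the proliferation marker Mki67 at 223, 312 and 412. Rrm1, the large subunit of ribonucleotide reductase, was near background with a mean of 0.972. Glycolysis had 19 of 21 above background and none near it. Ldha, lactate dehydrogenase A, was second to Eno1 there, with 345, 376 and 840. Chaperones had 23 of 25 above background, while the named spot of Hspa8, the constitutive Hsp70, was near background at a mean of 1.40. The maintenance methyltransferase Dnmt1 was the brightest of the methylation and Polycomb genes, of which 25 of 27 were above background, and it read 162, 173 and 317. The germ-line cofactor Dnmt3l was near background at a mean of 1.11.

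**Figure D2:**
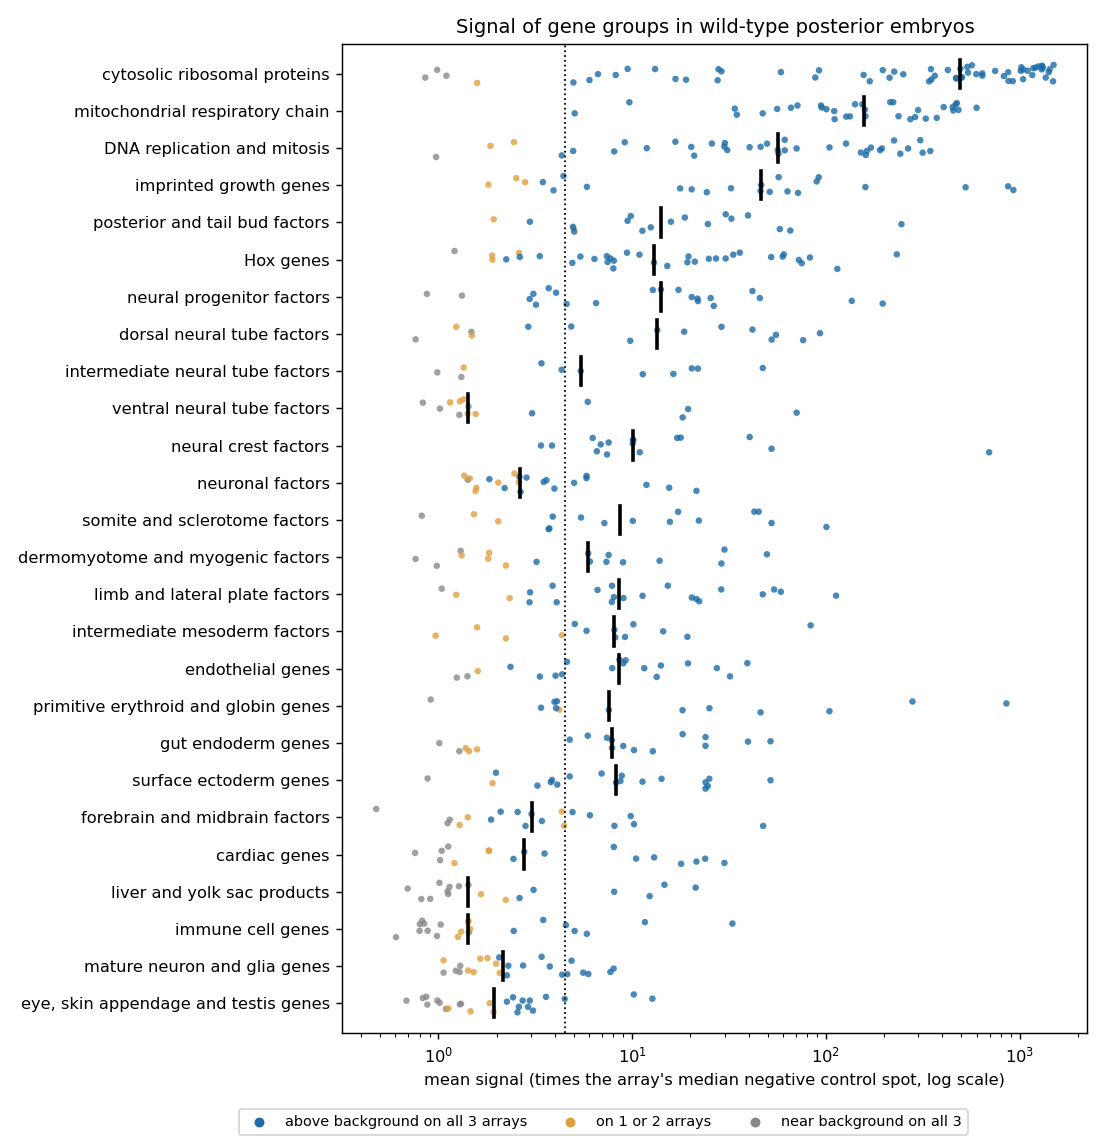
Mean signal of the members of 26 gene groups over the 3 wild-type arrays, in multiples of the median negative spot on a log axis. Each point is a gene, coloured by its call, black bars are group medians, and the dotted line is the median of all named genes, 4.51; housekeeping groups lie far to the right of it and groups of late tissues to its left.

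Among regulators, 280 transcription factors and cofactors of the lists could be measured. Above background were 206 (73.6%), and 61 were at least 10 times the negative median (21.8%), beside 66.1% and 26.5% of all named genes. A further 39 passed on some arrays, 33 were near background on all 3, and 2 had no reading. The brightest was Hoxa5, a Hox factor of cervical and thoracic levels, at 200, 193 and 304. Sox11, a factor of neural and mesenchymal progenitors, read 129, 223 and 237. Hoxb1, which is active in the tail end of the embryo as well as in the hindbrain, read 134, 49.0 and 160. Meis1, a partner of Hox proteins, read 84.2, 97.2 and 157, and was the next in order. Foxc2, a factor of somitic mesoderm, read 76.1, 28.3 and 197. Of these 5, sample 10 was far below both other samples for Hoxb1 and Foxc2. On the normalized log2 scale Meis1 differed little, with 11.26, 11.16 and 11.20, and Sox11 was highest in sample 10, with 11.83, 12.28 and 11.83. The spreads of neighbouring genes in this order overlapped. Msx1 and Msx2, targets of BMP signalling, had means of 93.2 ± 23.0 and 76.3 ± 21.7 (SD, n = 3). Sall1, of kidney and limb precursors, had 83.4 ± 39.8 and Sall4, of early progenitors, 65.5 ± 31.7 (SD, n = 3).

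**Figure D3:**
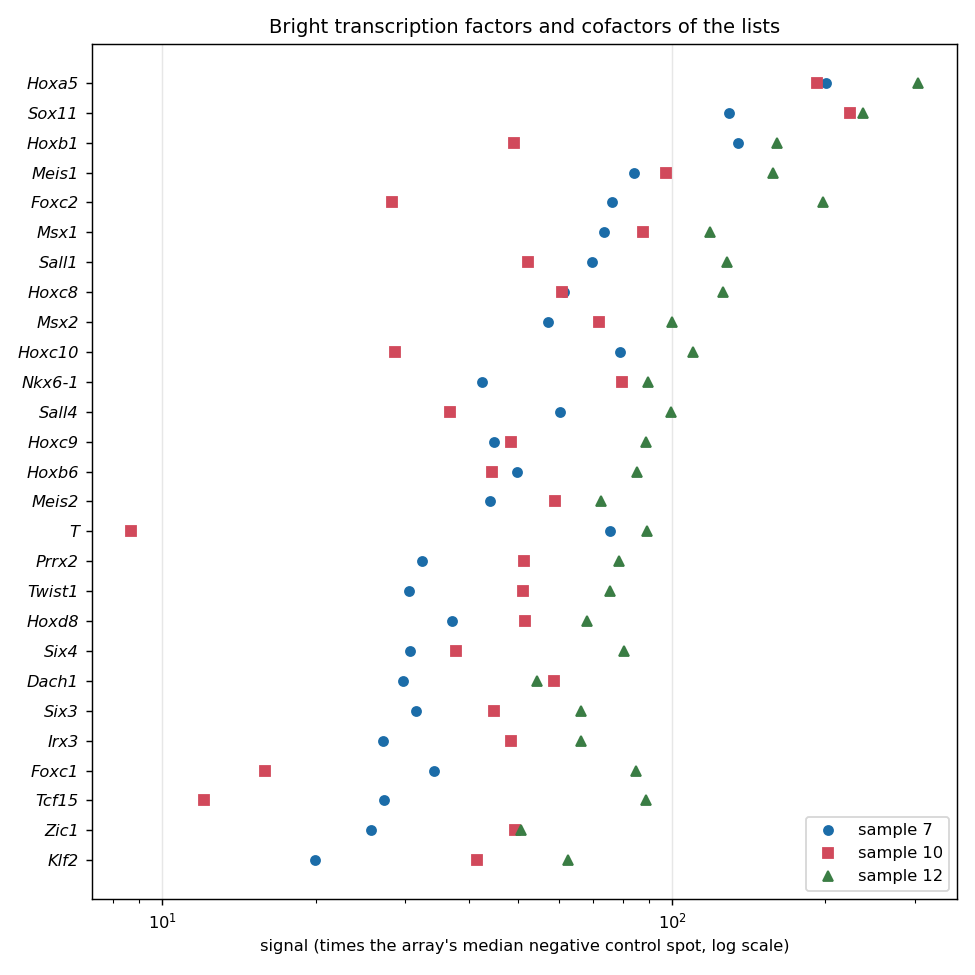
Signal of 27 of the 30 brightest listed transcription factors and cofactors by sample, in multiples of the median negative spot on a log axis. Hoxa5 lies between 193 and 304; the square of sample 10 lies far to the left for T (8.69) and left of the other samples for Foxc2, Foxc1, Tcf15, Hoxb1 and Hoxc10.

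Hox genes were nearly all detected. Of 35 with a named spot, 31 were above background (88.6%), beside 66.1% of all named genes. At least 10 times the negative median were 17 (48.6%), beside 26.5% of all named genes, and the median was 13. By position in the cluster, paralogue groups 1 to 3 had 7 of 8 above background, groups 4 to 8 had 13 of 14, groups 9 to 10 had 7 of 7, and groups 11 to 13 had 4 of 6. By cluster the counts were 9 of 11 for Hoxa, 10 of 10 for Hoxb, 7 of 7 for Hoxc and 5 of 7 for Hoxd. The counts of groups 11 to 13 and of Hoxd were near the share of all named genes. Hoxa13, a gene of the last group in the Hoxa cluster, was near background at 0.775, 1.13 and 1.72. Hoxd13, of the same group, passed on some arrays at 1.24, 2.13 and 2.30. Hoxb13, also of that group, was by contrast well above at 23.8, 29.3 and 38.1, and Hoxc13 read 4.82, 7.11 and 12.1. Group 13 thus spanned near background to a mean of 30.4 on probes of different genes.

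Of the Hoxc genes, Hoxc8, Hoxc9 and Hoxc10 were bright, while the median over the cluster was higher for Hoxb (28.7) than for Hoxc (19.5). Hoxc8, of thoracic levels, read 61.4, 60.9 and 126. Hoxc9, which marks thoracic levels too, read 44.7, 48.4 and 88.7. Hoxc10, of lumbar levels, read 79.2, 28.6 and 110, and here sample 10 was low. Hoxb9 was low there too, with 27.8, 11.8 and 35. In Hoxb6 (49.7, 44.4 and 85.5) and Hoxd8 (37.1, 51.4 and 68.0) sample 10 did not stand apart. Hoxb5, Hoxb7 and Hoxb3 had means of 27.1, 35.9 and 33.3. Hoxd10 and Hoxd11, which act at lumbosacral levels and in the limb, had means of 21.1 and 19.3, and Hoxa9, Hoxa10 and Hoxa11 had 8.05, 9.40 and 7.71. The anterior genes Hoxb2 (mean 13), Hoxa3 (10.9), Hoxa2 (7.46) and Hoxd1 (6.39) were above background.

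The dimmer Hox genes were spread through the clusters. Hoxa7 and Hoxc6 averaged 15.2 and 19.5, whereas Hoxb8 averaged 7.40, Hoxc4 5.40, Hoxc5 4.91, Hoxb4 3.33, Hoxd9 2.63 and Hoxa6 2.24. Hoxa4 (1.96, 1.91 and 1.82) and Hoxd3 (2.11, 1.49 and 4.21) were above background on some arrays only. Hoxc11, Hoxc12, Hoxd4 and Hoxd12 had no named spot and were not analysed here.

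**Figure D4:**
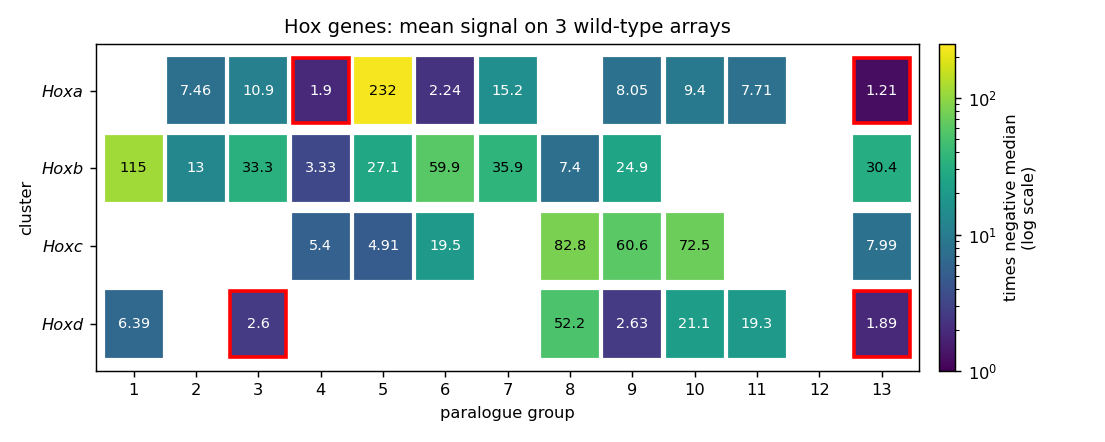
Mean signal of measured Hox genes over the 3 wild-type arrays, in multiples of the median negative spot, with clusters in rows, paralogue groups in columns and colour on a log scale. Red frames mark the 4 genes not above background on all 3 arrays (Hoxa4, Hoxa13, Hoxd3, Hoxd13); places left blank are not shown.

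Factors of the posterior end and tail bud were detected in 16 of 18 cases, and none was near background on all 3 arrays. Their share of 88.9% stood beside 66.1% of all named genes. The median was 14.2, and 6 (33.3%) were at least 10 times the negative median, beside 26.5% of all named genes. Lin28a, an RNA-binding protein of early progenitors, was the brightest at 206, 103 and 428. Fgf8, the growth factor that keeps the tail end undifferentiated, read 26.9, 27.0 and 37.4. Sp5, a Wnt target, read 31.4, 10.4 and 32.0. Wnt3a, a ligand of the tail bud, read 26.6, 11.5 and 18.0. On the normalized log2 scale sample 10 was the lowest for Lin28a (12.49, 11.23 and 12.70) and Sp5 (9.92, 8.20 and 8.94). Wnt3a was high in sample 7 there, with 9.69, 8.32 and 8.22. Cdx1 read 15.3, 9.53 and 22.8, and Cdx4 9.08, 8.29 and 16.5. Cyp26a1, which degrades retinoic acid in the tail bud, read 7.99, 2.83 and 18.7. On samples 7 and 12 alone, 17 of the 18 genes were above background, beside 68.5% of all named genes. There 10 of the 18 genes were at least 10 times the negative median, beside 26.9% of all named genes, and the median was 17.8. Sample 10 was left out because it was low in genes of this list, and dropping an array cannot lower such counts. The rise therefore follows from the choice of samples and adds no support. Msgn1, of presomitic mesoderm, and Fgf17 passed on some arrays only, at means of 4.98 and 1.93.

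Factors of the forebrain and midbrain were mostly at low signal. Above background were 12 of 20 (60.0%), near the 66.1% of all named genes, and their median was 3.02. Only Six3, a forebrain and eye factor, was at least 10 times the negative median (1 of 20, beside 26.5% of all named genes), at 31.5, 44.7 and 66.2. Otx2, the main determinant of fore- and midbrain, was near background at 0.461, 0.413 and 0.557. Six6 and Barhl2 were near background as well, at means of 1.14 and 1.11, and Vax1 had no reading. Hesx1 of the anterior neural plate passed the flag at a mean of 2.09, at the edge of background. En1 and En2, of the midbrain-hindbrain border, had means of 6.05 and 3.42, and En1 is also made in ventral limb ectoderm, somites and spinal interneurons. Nkx2-1 read 7.86, 9.05 and 13.7, and Fezf2 5.57, 6.73 and 12.0. Lhx2, which is also a limb gene, read 2.58, 22.0 and 4.92, high in sample 10 alone. The hindbrain list had 9 of 10 above background, among them Hoxb1, Hoxa2 and Hoxb2, which also count as Hox genes. Egr2, the Krox20 factor of rhombomeres, was near background at a mean of 0.937.

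Neural progenitor factors were above background in 19 of 21 cases (90.5%), beside 66.1% of all named genes, with a median of 14.1. Zic1, a zinc finger factor of the neural plate, averaged 41.8. Sox2, which maintains neural progenitors, read 7.14, 14 and 17.2, and its relative Sox1 averaged 3.19. Vim, an intermediate filament of progenitors, read 81.6, 146 and 181. Hes1, a Notch target, and Zic5 were near background at means of 0.871 and 1.32.

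On lists named for dorsoventral position in the neural tube, dorsal factors were bright by their median and the ventral ones split. The tissue was not neural tube alone, so these medians do not give a pattern along that axis. Dorsal factors had 11 of 15 members above background (73.3%), near the 66.1% of all named genes. Their median was 13.5, beside 4.51 for all named genes. Pax3, of dorsal neural tube and dermomyotome, read 20.2, 24.4 and 42.2, while its relative Pax7 was near background at 0.972, 0.555 and 0.758. Rspo1, a Wnt amplifier, and Bmp7, a roof plate ligand, averaged 55.2 and 52.5, and Msx3 was near background at 1.48. Intermediate factors had 8 of 11 above background (72.7%) and a median of 5.43. Pax6, which sets progenitor domains, read 12.6, 25.5 and 27.5, and Irx3 27.1, 48.3 and 66.3. Dbx1 read 6.00, 33.5 and 21.5, lowest in sample 7. Ventral factors had 5 of 14 above background (35.7%) and a median of 1.42. Nkx6-1, of ventral progenitors, was bright at 42.5, 79.8 and 89.8, and Foxa1 (18.2) and the floor plate matrix gene Spon1 (19.5) followed. Foxa2, the floor plate and endoderm factor, read 4.44, 4.32 and 8.94. Olig2, of motor neuron progenitors, was near background at 1.11, 1.48 and 1.69, as were Olig1 and Ferd3l at means of 1.02 and 0.831. Shh, the floor plate and notochord ligand, was near background on its named spot at 0.857, 0.975 and 2.01. Another spot, described as Shh but annotated to several genes, read 1.82, 1.39 and 3.27 and passed in samples 7 and 12.

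Neural crest factors were above background in 16 of 16 cases, beside 66.1% of all named genes, at a median of 10.1. Crabp1, a retinoic acid binding protein of crest and hindbrain, was among the brightest genes of the whole tissue at 509, 837 and 744. Twist1, of mesenchyme, read 30.5, 51.1 and 75.6, and Foxd3, of early crest, 12.0, 14.5 and 24.7. Erbb3, a neuregulin receptor of crest, averaged 17.8. Neuronal factors were dim by their median, 2.63, beside 4.51 for all named genes. Above background were 14 of 22 (63.6%), near the share of all named genes. Only 1 member (4.5%) was at least 10 times the negative median, beside 26.5% of all named genes. That member was Isl1, of motor neurons and of hindlimb and heart precursors, at 12.3, 25.9 and 26.3. Neurog2, a proneural factor, read 5.09, 18.0 and 12.4, and Lhx5 was near background at 1.42.

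The lists of segmentation genes and of somite factors were small, and their shares are set beside the 66.1% of all named genes with no test. Of 22 genes of the segmentation clock and presomitic mesoderm, 17 were above background (77.3%). At least 10 times the negative median were 5 (22.7%), below the 26.5% of all named genes. Dll3, a Notch ligand of presomitic mesoderm, was the brightest at 93.4, 57.6 and 157, and Hes7, the clock repressor, read 14, 8.88 and 35.4. The Wnt target Axin2 was near background at 1.04, and Lfng, a modifier of Notch, passed on some arrays at 1.56. Somite and sclerotome factors had 13 of 16 above background (81.25%) and a median of 8.63. Tcf15, which makes somites epithelial, read 27.2, 12.1 and 88.9. Foxc1, the partner of Foxc2, read 34.2, 15.9 and 84.9, and Meox1 8.8, 7.27 and 30.9. Pax1, of sclerotome, read 14.4, 23.8 and 28.1. Of these somite genes all but Pax1 were lowest in sample 10. Tbx22 was near background at 0.820.

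Of 17 dermomyotome and myogenic factors, 10 were above background (58.8%), below the 66.1% of all named genes. Six4, which acts upstream of myogenic factors, averaged 49.6, and Dmrt2 of the dermomyotome 13.9. Myf5, the first myogenic determination factor, read 4.83, 7.79 and 10.1. Myog passed on some arrays at a mean of 1.81, and Myod1 and Myf6 were near background at 1.30 and 0.980. Notochord genes other than T had few bright members. Noto and Chrd, both of node and notochord, passed on some arrays at means of 1.87 and 1.76.

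Limb and lateral plate factors had 19 of 22 above background (86.4%), beside 66.1% of all named genes. Among them were Prrx2 at 54.1 ± 23.3 and Tbx3 at 28.8 ± 3.80 (SD of the ratios, n = 3). On the normalized log2 scale the SD was 0.17 for Prrx2 and 0.40 for Tbx3, so Tbx3 varied more there. Pitx1, the determinant of the hindlimb, read 13.9, 9.19 and 43.4, while Tbx4, its partner in hindlimb outgrowth, passed on some arrays at a mean of 2.33 and Hand2 was near background at 1.04. Of intermediate mesoderm factors 9 of 14 were above background (64.3%), close to the share of all named genes, Gata3 at a mean of 14.4, while Pax8 passed on some arrays and Pax2 had no reading. Endothelial genes had 16 of 19 above background (84.2%), but 4 (21.1%) at least 10 times the negative median, beside 26.5% of all named genes. Kdr, the main VEGF receptor, read 27.5, 35.4 and 55.0, Pecam1 averaged 4.02, and Cdh5 and Flt1 were near background at 1.41 and 1.24. Cardiac genes had 10 of 17 above background (58.8%), below the share of all named genes. They were led by the sarcomere genes Actc1, with 14.2, 26.0 and 49.6, and Myl7, with a mean of 23.8. The heart lies in front of the cut. Nkx2-5 passed on some arrays at 1.82, and Myh6, Tnnt2 and Nppb were near background at 0.757, 1.02 and 1.12.

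Primitive red cells were visible through their globins, which differed between samples. Hbb-y, an embryonic beta globin, read 349, 1270 and 947, and its value in sample 10 was flagged saturated. Hba-x, the embryonic zeta globin, read 107, 435 and 297. Both were lowest in sample 7 and highest in sample 10. Alas2, which makes haem in red cells, read 6.81, 34.0 and 34.4. Tal1, a factor of blood and endothelium, read 89.7, 86.2 and 137. The list had 11 of 13 members above background (84.6%), beside 66.1% of all named genes, with Klf1 on some arrays at 4.21. Of the adult globins and of Hbb-bh1 no spot was named.

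The promoters of the globins are shown because both genes kept the same order over the samples. They are the 140 bases before the start in the RefSeq table for GRCm38.p6, at chr7:103853208-103853347 on the minus strand for Hbb-y and at chr11:32276460-32276599 on the plus strand for Hba-x. Capitals mark the CACCC box, the CCAAT box, the GATA core, the TATAAA box and its variant CATAAA. All were searched on both strands, and the variant was added after the letters had been read.
Hbb-y: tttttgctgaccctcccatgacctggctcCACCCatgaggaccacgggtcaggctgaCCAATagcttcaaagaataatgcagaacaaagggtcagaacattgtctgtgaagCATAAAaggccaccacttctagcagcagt
Hba-x: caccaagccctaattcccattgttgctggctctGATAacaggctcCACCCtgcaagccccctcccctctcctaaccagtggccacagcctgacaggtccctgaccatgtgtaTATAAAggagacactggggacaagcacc
Among all promoters of the table, 35.6% held the CACCC box in these 140 bases, 33.8% the GATA core, 23.4% the CCAAT box, 7.21% the TATAAA box and 5.95% its variant. The matched letters do not overlap each other, and a match describes the letters and says nothing of binding.

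Markers of gut and skin ranged widely. Epcam, an adhesion protein of epithelia, read 33.2, 39.9 and 82.3, and Cdh1, the epithelial cadherin, averaged 8.25. Krt8, an early epithelial keratin, read 6.06, 9.05 and 56.6, high in sample 12 alone. Gut endoderm genes had 13 of 19 above background (68.4%), close to the 66.1% of all named genes, Sox17 at a mean of 9.00, and Hnf4a was near background at 1.01, while Pdx1 passed on some arrays at 1.44 and Ihh had no reading. Surface ectoderm genes had 17 of 19 above background (89.5%), with Wnt7b near background at 0.879. At least 10 times the negative median were 4 of the 19 (21.1%), beside 26.5% of all named genes. Of 18 products of liver and yolk sac, 6 were above background (33.3%). Rbp4, the retinol carrier, averaged 21.3 and Afp, alpha-fetoprotein, 8.06, and Apob, Fga and Hhex were among 9 measured near background, at 1.12, 1.11 and 0.693. Among germ cell and pluripotency genes, Ifitm1, an interferon-inducible membrane protein of early mesoderm and germ cells, was far brighter than the rest at 687, 310 and 853. Pou5f1 read 7.34, 7.71 and 17.2, and Zfp42 and Dazl were near background at 0.799 and 0.947.

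Lists of signalling ligands had lower medians than those of their receptors and targets. Wnt ligands had 13 of 19 above background with a median of 3.35, and FGF ligands 11 of 22 with a median of 2.74. After Wnt3a, Wnt3 and Wnt7a were the brightest Wnt ligands at means of 18.5 and 15.9, and Wnt5b was near background at 0.888. Fgf18 read 18.4, 5.58 and 39.8, and Fgf12, Fgf14, Fgf21 and Fgf22 were near background. BMP and TGF-beta ligands had 18 of 26 above background (69.2%), near the share of all named genes, with a median of 3.59. Bmp4, a ligand of roof plate and ventral mesoderm, was at 10.5, 13.2 and 22.2, and Bmp5 and Lefty1 were near background at 1.20 and 1.27. Of the receptors and targets, Lef1, which carries Wnt signals to DNA, read 172, 112 and 222. Acvr2b, an activin receptor, read 167, 156 and 313, and Id3, a BMP target, 115, 156 and 245. Spry1, a feedback inhibitor of FGF, read 42.2, 44.7 and 91.5. Receptors of FGF and their feedback genes had 12 of 13 above background (92.3%) and a median of 4.17, below the 4.51 of all named genes. Only 1 of the 13 (7.69%) was at least 10 times the negative median, beside 26.5% of all named genes. Wnt receptors and modulators had 22 of 31 (71.0%) and 4.63, with 6 (19.4%) at least 10 times the negative median. For BMP receptors, antagonists and response genes these were 16 of 20 (80.0%) and 6.04.

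Hedgehog genes had 13 of 19 above background (68.4%), near the 66.1% of all named genes, and a median of 6.75. Ptch1, receptor and target of the pathway, read 134, 126 and 226, and the target Gli1 11.0, 10.3 and 22.4. Gas1, a co-receptor, averaged 120. Smo, the transducer, averaged 11.3, while Sufu and Disp1 were near background at 1.16 and 1.17. Fkbp8, the gene under study, read 5.41, 8.22 and 26.2 and was above background in all 3 wild-type samples. Retinoic acid genes had 15 of 18 above background (83.3%). Crabp2 read 279, 446 and 454, and Aldh1a2, the enzyme that makes retinoic acid in somites, 15.1, 17.1 and 56.3, and its relatives Aldh1a1 and Aldh1a3 were near background at 1.12 and 1.19. The Notch pathway had 18 of 24 above background, with Notch1 at 27.8, 28.9 and 89.5 and Notch3 and Dll4 near background at 1.26 and 1.14. Of 35 genes listed for roles in neural tube closure, 29 were above background (82.9%). At least 10 times the negative median were 13 (37.1%), beside 26.5% of all named genes. Marcks, an actin-linked kinase substrate, was the brightest at 262, 412 and 563. Scrib and Ptk7, of planar cell polarity, read 105, 98.4 and 235, and 52.9, 30.6 and 73.7. Shroom3, which constricts neural plate cells, and Cobl were near background at 1.39 and 0.773.

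Families of factors differed in how many members passed, and their order depended on the call. Above background were 15 of 16 Irx, Meis and Pbx genes, 18 of 20 Sox genes, 17 of 22 Gata and Klf genes, 9 of 12 Eya, Dach and sine oculis-related genes, 12 of 17 T-box genes, 29 of 42 Fox genes, 5 of 9 Pax genes and 6 of 11 LIM homeobox genes, beside 66.1% of all named genes. The T-box (70.6%) and Fox (69.0%) shares were near that of all named genes. At least 10 times the negative median were, in the same order, 5, 1, 4, 5, 5, 7, 3 and 1 genes, beside 26.5% of all named genes. By this stricter call Sox genes had 5.0% and Pax genes 33.3%. Sox8 and Sry of the Sox genes, Eya4 of the Eya genes, and Klf8 and Klf15 of the Klf genes were near background, at means of 0.712, 1.14, 0.675, 1.17 and 0.981. Of the Fox genes 9 were near background, among them Foxj1, the factor of motile cilia, at 1.31, Foxe3 of the lens at 1.09 and Foxp2 at 0.996. Gata5 and Tbx5 averaged 23.5 and 20.3.

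Genes of tissues that form later gave little signal. Lists of mature neurons and glia, of skeletal muscle, bone and cartilage, of adult abdominal organs, of immune cells, and of eye, skin appendages and testis had 33.3% to 54.5% of members above background, with medians of 1.42 to 2.16. A single gene of these 5 lists was at least 10 times the negative median, Cd79a, a B-cell receptor subunit, at 21.1, 24.5 and 53.1. Ptprc, the general white cell antigen, was near background at 0.802, and so were Cd3e and Adgre1 at 0.823 and 1.03. Gad1, of inhibitory neurons, averaged 8.02 and was the brightest gene of mature neurons, and Nefh and Mog were near background at 1.30 and 1.06.

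The 3 wild-type samples were close to each other apart from limited sets of genes. Over 19300 spots above background and usable on all 3 arrays, the median SD of the normalized log2 signal was 0.14. Highest and lowest array differed over 2-fold at 597 of 26327 spots (2.27%), counting spots above background on at least 1 array. Between arrays, 285 spots were over 2-fold apart between samples 10 and 7, 226 between 12 and 7, and 350 between 12 and 10. Spots over 2-fold above both other arrays numbered 27 in sample 7, 78 in sample 10 and 55 in sample 12, and those over 2-fold below both numbered 27, 37 and 40.

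**Figure D5:**
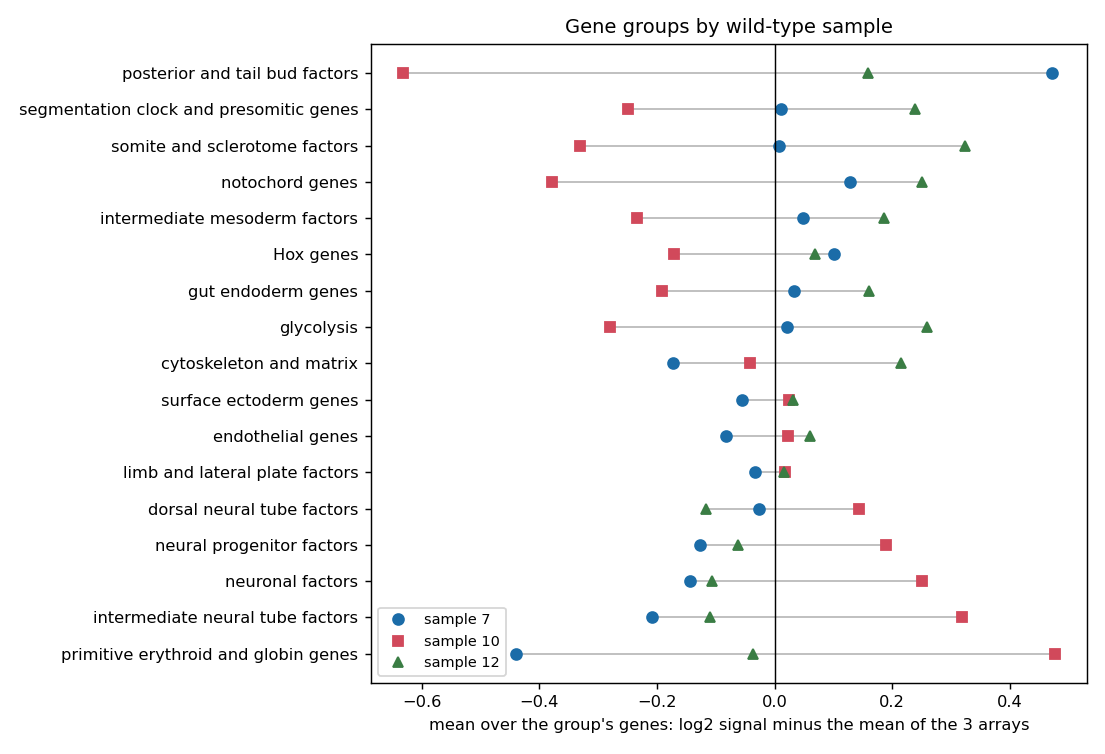
Mean over the genes of a group of the normalized log2 signal minus the mean of the 3 arrays, for 17 groups and each wild-type sample. Sample 10 lies lowest for posterior and tail bud factors (-0.63) and highest for primitive erythroid genes (0.48), which are lowest in sample 7 (-0.44).

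Several groups of genes differed in their mean level between the samples. Posterior and tail bud factors deviated from the mean of the arrays by 0.47 in sample 7, -0.63 in sample 10 and 0.16 in sample 12, on the normalized log2 scale. Sample 10 was lowest for 14 of their 18 genes, beside 33.4% of all named genes. Notochord genes, which share T and Cdx2 with that list, had deviations of 0.13, -0.38 and 0.25, and somite factors 0.01, -0.33 and 0.32. The median deviation in sample 10 was smaller, -0.16 in each of these 2 lists. Sample 10 was lowest for 7 of 12 notochord genes and highest for 2. Among 15 somite factors it was lowest for 9 and highest for 3. Hox genes moved less, with 0.10, -0.17 and 0.07, although sample 10 was lowest for 20 of 34. In the other direction, neuronal factors stood at -0.14, 0.25 and -0.11, with sample 10 highest for 15 of 19, and intermediate neural tube factors at -0.21, 0.32 and -0.11. Primitive erythroid genes stood at -0.44, 0.48 and -0.04, and sample 7 was lowest for 11 of 12. Glycolysis had 0.02, -0.28 and 0.26. These groups are described on 3 single samples, with no test. The level of cut, the number of somites and the amount of blood in each sample are not given in the sources used here, and their part in these differences was not tested.

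The single genes that differed most were few. Pparg, a fat and metabolic nuclear receptor, read 0.902, 284 and 1.64. Xist, which coats the inactive X chromosome of females, read 0.616, 53.8 and 1.59, and the Y-linked Eif2s3y 11.9, 0.958 and 31.2. Sample 10 was thus high for Xist and at background for Eif2s3y, and samples 7 and 12 were the reverse. Prap1, a proline-rich acidic protein, read 1.02, 0.826 and 87.5, high in sample 12 alone. Plp2 (5.66, 171 and 18.4) and Plcd4 (5.20, 68.0 and 5.58) were highest in sample 10. Sample 7 stood alone for Mdm1 (31.3, 1.91 and 2.51), and was the low one for Rcc2 (3.21, 79.1 and 80.6) and Cenps (2.83, 32.8 and 43.1). Others of the 15 most variable were T, Ttpal, Gm10419, Adpgk and Saraf, with SDs of 1.51 to 1.69 on the log2 scale.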

How the data were processed

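Spots were quantified with CodeLink Expression Analysis 4.1, per the file headers, and the deposited raw intensity of each spot already has its local background subtracted. The software's normalized intensity divides it by the array's median transcript spot, as the headers state. The signal in the authors' value table is linear and equals this intensity times 1.01 to 1.02, with a median of 1.04 in each wild-type column over all its rows, and it is not centred by gene. Per the labels' protocols, RNA was amplified by a modified Eberwine method.

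Here raw intensity was divided by the median negative spot, leaving out irregular, contaminated and defective spots (303 to 373 per array) and keeping saturated ones (6 to 21). Differences between arrays used log2 of raw intensity floored at 0 plus 50, quantile normalized over all 6 arrays. The offset compresses differences of dim spots. A gene was above background if any of its named spots was, and its level is that of its brightest spot with at least 2 usable values. Spots were named from the platform annotation (21615) or accession (499). Spots with several genes (681) or none (12172) were left unnamed. No test was run, since no second group is compared, and 3 arrays limit the precision of every SD. The labels do not say whether each sample is a single embryo or a pool, or whether the samples are separate embryos. The spread calculation was tested on simulated data.

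Named were the 30 brightest genes, in each of 56 lists up to 6 bright and 8 near-background members, all Hox genes, markers listed for each tissue, Fkbp8 and the 15 most variable genes. Members named as passing on some arrays, a few others in the lists and Uqcrh were chosen after their values were seen. The lists and samples were chosen with earlier results of these data known. Computations used Python 3.11.15 with pandas 2.3.3. Some genes that the rule would name are not reported here.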

Additional observations from a re-analysis of the deposited data

How the results depend on the processing

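No paired analysis was possible because the sample numbers are not shared between genotypes and no second group is compared. Under the planned rules for background (the 95th percentile of negative spots, 2 times their median, leaving out flawed spots, 2 arrays in place of 3, the brightest spot of each gene), 18021 to 21414 spots and 11375 to 13012 genes were above background, beside 19914 and 12240, and 36 to 41 of the 56 lists had a higher share than all named genes, beside 40 (the lists were not recounted without flawed spots). The stricter call, chosen after seeing the data, gave 6214 spots, 4899 genes and 26 lists, so that counts of genes above background depend on the rule. At 2 times the negative median, the genes above background fell to 5 of the muscle, bone and cartilage list and 3 of the abdominal organ list, and without sample 10 they were 5 of the sex-specific list. Of the 30 brightest genes, 29 or 30 were shared with the normalized intensity, the authors' value table and each pair of arrays. Spots over 2-fold apart numbered 594 when the wild-type arrays were normalized alone, 985 under median scaling, 3953 with an offset of 1 and 4332 in the authors' value table with no offset, beside 597. An offset of 1 or none leaves dim spots uncompressed. Leaving out a sample gave 226 to 350, since 2 arrays remain. Median scaling moved the median gene to -0.11 in sample 7 and 0.11 in sample 12. The deviations of posterior factors in sample 10 were then -0.65, of erythroid genes 0.45 and of somite factors -0.35, and sample 10 kept its direction for these 3 lists under all 4 scalings. Saturation bounds the brightest genes, and the near-background flag limits what can be said of dim ones.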

Other observations

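Many bright transcripts could not be named. Among the 100 brightest spots, 27 had no gene symbol or several. Of the 12853 unnamed spots, 5997 (46.7%) were above background on all 3 arrays and 1027 at least 10 times the negative median, whereas 13917 of 22114 named spots (62.9%) were above background. The named spot of Gapdh, a glycolytic enzyme, read 3.75, 2.58 and 4.49, while a spot described as the same gene but annotated to several read 1024, 1120 and 1414 in samples 7, 10 and 12.

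Spots of the same gene often disagreed. Of 3054 genes with at least 2 named spots, 614 (20.1%) had a spot above background on all 3 arrays and another near background on all 3, and in 673 (22.0%) the brightest and dimmest spots were at least 10-fold apart. Rpl35 had a second spot at a mean of 0.690, and Tuba1b one at 0.872. Among other genes named above, the dimmest spot had a mean of 5.38 for Grb10, 0.895 for Ldha, 5.57 for Sox11 and 3.66 for Sall4. Their printed levels and places are those of the brightest spot. A near-background call on a gene's sole spot, as for Otx2, Olig2, Pax7, Hes1 and Cdh5, therefore describes that spot.

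Kdm5d, which is Y-linked, was above background in every sample at 9.18, 7.22 and 12.3, including sample 10, where Eif2s3y, Ddx3y and Uty read 0.958, 1.29 and 1.22.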
